A study of Mus musculus with 6 samples.

Results

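The genes described here are 39 mouse genes of the interferon and double-stranded RNA response. They were taken from a list of symbols, and each was represented by a probe annotated with exactly 1 gene symbol. Where a gene had several such probes, the one with the highest mean over the arrays was used. All 39 were measured, among 19938 genes with such a probe, and they comprised 6 sensors of foreign RNA, 12 signalling proteins and transcription factors and 21 effectors. RNA came from N2A cells, a mouse neuroblastoma line, on 3 Affymetrix Mouse Gene 1.0 ST arrays after transient transfection of a short hairpin RNA (shRNA) construct against Pbcas4 and on 3 arrays after transfection of a scramble construct. Pbcas4 is the transcribed mouse pseudogene of human BCAS4, and the comparison asks which transcripts differ in level when it is depleted. Both conditions received 4 μg of a hairpin driven by the U6 promoter with the same lipid reagent, 24 h after plating, and were harvested 72 h later. Any response that the hairpins or the transfection share is therefore present on both sides of the comparison, and untransfected cells were not analysed here. The share of cells that took up a construct is not given in the sources used here.

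The hairpins are themselves short double-stranded RNAs, so their paired arms are shown first. The arm of each oligonucleotide on the 5′ side of the loop, as far as it pairs perfectly with the other arm, reads as follows.
Pbcas4 shRNA: gatccctgttgtgacatg
scramble: agatactcgatcccgcg
The perfect stem was 18 base pairs long in the Pbcas4 hairpin and 17 base pairs long in the scramble hairpin, each with a loop of 9 bases, so the constructs differed by 1 base pair in this respect.

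As background, RNA viruses and other sources of long double-stranded RNA are detected in the cytoplasm by the helicases RIG-I, MDA5 and LGP2 and by the kinase PKR, and in endosomes by the receptor TLR3. RIG-I and MDA5 signal through the mitochondrial protein MAVS to the transcription factors IRF3 and IRF7, which switch on interferon genes. Secreted type I interferon binds the receptor formed by IFNAR1 and IFNAR2, and a complex that contains STAT2 and IRF9 then carries the signal to interferon-stimulated response elements in the promoters of antiviral effectors such as the IFIT, OAS and Mx proteins. Many of the sensors and signalling proteins are themselves interferon-stimulated, so their transcripts often move together with those of the effectors.

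The authors deposited 1 value per probe and array on a log2 scale, with array medians between 7.75 and 7.86 and correlations across probes of 0.984 to 0.995 between arrays. A difference of 1 on this scale is a doubling. Levels of different probes are not comparable, so differences between the constructs were taken within each gene. Statements that place a probe above or below the median of all probes, or call it brighter or dimmer, are therefore rough. List means average over different probes and were compared only between arrays. Of 12 measured markers of the sympathoadrenal lineage of this line, 10 lay above the median of all probes, among them Phox2a, Hand2 and Stmn2, while Nefl and Nefm, subunits of neurofilaments, lay below it (6.17 to 6.57). Their mean moved with the condition, at 10.81, 10.70 and 10.62 in shRNA replicates 1 to 3 and 11.12, 11.28 and 11.05 in scramble replicates 1 to 3, and the part of this in the results below was not tested. Of 10 macrophage markers, 1 lay above that median (Cd68), and their mean was 6.58 to 6.68 in the shRNA arrays and 6.58 to 6.64 in the scramble arrays. Scramble replicate 1 stood apart from the other scramble arrays: the mean of 11 cell division markers was 12.60 in it, against 11.76 and 11.29 in scramble replicates 2 and 3 and 12.56 to 12.74 in the shRNA arrays. Transfections were in triplicate and the labels number the arrays, and cells were plated in wells, but the sources used here do not say whether the wells came from independent cultures, so each p below measures the spread between these samples, which may be technical. Pbcas4 itself was not analysed here. In bulk RNA, fewer cells that express a gene and less RNA per cell cannot be told apart.

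No gene of the interferon and double-stranded RNA response passed the criterion used here between the constructs. By condition mean, 0 members were higher by more than 0.5 after Pbcas4 shRNA, against 532 of the 19938 genes. Lower by more than 0.5 were 4 of the 39 members, against 560 of the 19938 genes. Of the 39 genes, 26 were lower by condition mean after Pbcas4 shRNA (66.7%, against 49% of all genes) and 13 higher. Their median log2 difference was -0.09 (range -0.63 to 0.28), against 0.00 over all 19938 genes. The criterion was an adjusted p under 0.05 from limma with a log2 difference over 0.5, which is a reading of the study's limits and may not be the same test. It was met by 0 of 39 members and by 0% of all genes, so the 0 is not particular to the members. The study reported differentially expressed genes from limma at that adjusted p between the same conditions, a result that the fit used here did not reproduce. The lowest adjusted p from limma among the members was 0.344, that of Irf1. At an unadjusted p under 0.05, 4 members were lower (Irf1, Irf9, Ifi35 and Cmpk2), or 10.3%, against 5.46% of all genes, and 0 were higher, against 6.22% of all genes. For 6 members every shRNA array lay below every scramble array (Irf1, Irf9, Cmpk2, Mx1, Parp14 and Oas2), or 15.4%, against 7.63% of all genes, and for 0 members did every shRNA array lie above, against 9.13% of all genes. The 95% interval of the difference from limma lay below a doubling for all 39 members, as it did for 97.3% of all genes, and its highest upper end was 0.74, for Ifnar2. Its lower end lay below -1 for 6 of the 39 members, against 634 of the 19938 genes, so large decreases were not excluded for these 6. The means of 24 of the 39 members lay above the median of all probes, 7.83, as did those of 11454 of the 19938 genes.

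The count of members lower at an unadjusted p under 0.05 depended on single arrays. It was 1 without shRNA replicate 1 (2.56%, against 4.81% of all genes in the same fit), 7 without shRNA replicate 2 (17.9% against 5.97%) and 2 without shRNA replicate 3 (5.13% against 3.14%). It was 7 without scramble replicate 1 (17.9% against 8.03%), 1 without scramble replicate 2 (2.56% against 2.88%) and 1 without scramble replicate 3 (2.56% against 3.13%). The share of members was therefore below that of all genes in 3 of these 6 fits. Without shRNA replicate 1, 2 members were higher at that p, Tlr3 and Ifnar2 (5.13%, against 5.88% of all genes). With each array centred on its median, 1 member was lower, or 2.56%, and the shares of all genes were then 7.69% higher and 3.68% lower.

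**Figure D1:**
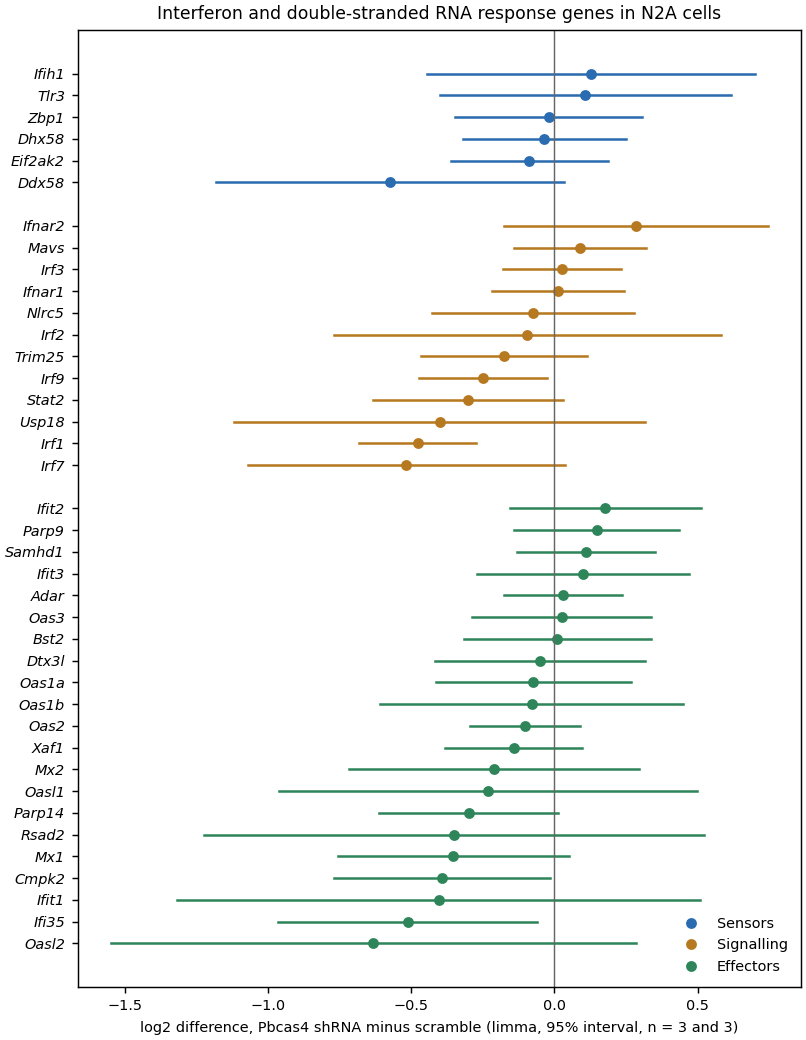
Log2 difference between the condition means (Pbcas4 shRNA minus scramble, horizontal axis) for each of the 39 genes, grouped by role. Points are differences and lines are 95% intervals from limma with 3 arrays a condition. The intervals of Irf1, Irf9, Ifi35 and Cmpk2 lie wholly below 0, and no interval lies wholly above 0.

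Among the sensors, none reached an unadjusted p under 0.05, and their median log2 difference was -0.03, a value that turned positive without scramble replicate 1 (0.0042). Ddx58 encodes RIG-I, the helicase that binds RNA ends carrying a triphosphate. It was at 8.79, 9.68 and 9.20 in shRNA replicates 1 to 3 and at 9.46, 9.86 and 10.07 in scramble replicates 1 to 3. The conditions overlapped, since shRNA replicate 2 lay above scramble replicate 1, and the log2 difference was -0.57 (95% interval -1.18 to 0.03, adjusted p = 0.514 from limma), or -0.36 without shRNA replicate 1. The other sensors differed by 0.13 or less in either direction. Ifih1, which encodes MDA5, the helicase for long duplexes, had a difference of 0.13 (95% interval -0.44 to 0.70 from limma). Tlr3, the endosomal receptor, was at 6.59, 7.40 and 7.19 in the shRNA arrays and at 7.11, 6.90 and 6.85 in the scramble arrays. Its shRNA arrays held both the lowest and the highest value of the 6, and the difference was 0.11 (95% interval -0.40 to 0.62 from limma) and -0.06 without shRNA replicate 2. Dhx58 (LGP2), Eif2ak2 (PKR, which halts translation when it binds double-stranded RNA) and Zbp1, a sensor of nucleic acids in the left-handed Z form, had differences of -0.03, -0.09 and -0.02.

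Irf1 was the member with the clearest separation of the conditions. It encodes a transcription factor that is induced by interferons, above all interferon gamma, and that activates many antiviral and antigen presentation genes. It was at 9.16, 9.29 and 9.19 in the shRNA arrays and at 9.77, 9.68 and 9.63 in the scramble arrays. All shRNA arrays lay below all scramble arrays, and each condition spanned less than the gap between them. The mean was 9.21 ± 0.07 (SD, n = 3) after Pbcas4 shRNA and 9.69 ± 0.07 (SD, n = 3) after scramble, a log2 difference of -0.48 (standard error 0.09, 95% interval -0.68 to -0.27). On the linear scale this is 0.718 of the scramble level (95% interval 0.623 to 0.828). The unadjusted p was 0.00101 from limma and the adjusted p was 0.344, and p was 0.1 by a two-sided exact permutation test, the smallest that 3 arrays against 3 allow. It was lower at an unadjusted p under 0.05 in each of the 14 alternative analyses, with differences of -0.52 to -0.26. The smallest of these came from averaging its probes, since the dimmer of its 2 probes showed a difference of -0.04. Scramble replicate 1, which stood apart for cell division markers, had the highest Irf1 value of the 6 arrays.

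The promoter of Irf1 is shown because Irf1 had the lowest p of the members and carries a match to the gamma-activated site, a promoter element of interferon gamma signalling, in the window before its RefSeq start site. The stretch lies on the plus strand at chr11:53769914-53769942 of GRCm38.p6, and the match, in capitals, begins 90 bases before the start.
Irf1: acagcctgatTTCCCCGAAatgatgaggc
The letters searched were TTCNNNGAA, which read the same on both strands, in the 250 bases before each start. They were found for 8 of the 29 members with a RefSeq promoter (27.6%) and for 8.13% of all 27025 genes. The other members with a match were Bst2, Eif2ak2, Ifit2, Ifnar2, Irf2, Oas1a and Samhd1. The median log2 difference was -0.03 over the 8 members with the match and -0.18 over the 21 without it.

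Of the remaining signalling genes, Irf9 was lower at an unadjusted p under 0.05. Irf9, the DNA-binding partner of STAT2, was at 9.11, 9.32 and 9.31 in the shRNA arrays and at 9.46, 9.53 and 9.49 in the scramble arrays. The conditions did not overlap, and limma gave a log2 difference of -0.25 with a 95% interval of -0.47 to -0.03 (adjusted p = 0.461). Stat2, the transactivating subunit of the same complex, was at 10.33, 10.80 and 10.48 against 10.81, 10.95 and 10.75, with shRNA replicate 2 above scramble replicate 3 and a difference of -0.30 (95% interval -0.63 to 0.03 from limma). Irf7, the interferon-inducible factor that amplifies interferon production, was at 7.21, 7.58 and 7.39 in the shRNA arrays and at 7.39, 8.14 and 8.20 in the scramble arrays. Its scramble replicate 1 lay within the shRNA range, and the difference was -0.52 (95% interval -1.07 to 0.04 from limma), or -0.78 without scramble replicate 1. Usp18, which binds IFNAR2 and dampens signalling, had a difference of -0.40 with a wide interval (-1.12 to 0.32), and of -0.09 without shRNA replicate 1.

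The receptor and the adaptors upstream of interferon production showed small differences. Ifnar1 differed by 0.01 (95% interval -0.22 to 0.24), Irf3 by 0.03 (-0.18 to 0.23), Mavs by 0.09 (-0.14 to 0.32) and Trim25, a ubiquitin ligase that acts on RIG-I, by -0.18 (-0.46 to 0.11), each interval from limma. These intervals exclude a change of 0.5 in either direction. Ifnar2 was at 10.96, 11.62 and 11.52 in the shRNA arrays and at 10.93, 11.05 and 11.27 in the scramble arrays, and its difference of 0.28 was the highest among the members (95% interval -0.18 to 0.74 from limma). Irf2, a factor that competes with IRF1 for its sites, was at 10.81, 11.89 and 11.72 against 11.37, 11.65 and 11.69. Its shRNA replicate 1 lay lowest of all arrays, and the difference of -0.09 became 0.24 without that array. Nlrc5, the transactivator of MHC class I genes, is annotated to 19 probes whose differences lay between -0.16 and 0.15, so no probe of it separated the constructs by more than 0.16. Its brightest probe, used here, gave -0.08.

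Effectors showed the widest range of differences, with a median of -0.10 (-0.01 without shRNA replicate 1). By condition mean, 14 of 21 were lower (66.7%, against 49% of all genes) and 7 higher. Cmpk2, a mitochondrial nucleotide kinase encoded beside Rsad2, was at 8.84, 9.37 and 9.35 in the shRNA arrays and at 9.65, 9.61 and 9.48 in the scramble arrays. The conditions did not overlap, and limma gave a log2 difference of -0.39 with a 95% interval of -0.77 to -0.01 (adjusted p = 0.483), or -0.22 without shRNA replicate 1. Ifi35, an interferon-induced leucine zipper protein, was at 9.39, 9.99 and 9.76 against 9.99, 10.23 and 10.47. Its shRNA replicate 2 and scramble replicate 1 lay at the same level, and limma gave a difference of -0.51 with a 95% interval of -0.97 to -0.06 (adjusted p = 0.459). Mx1, a dynamin-like GTPase that blocks influenza viruses, was at 6.64, 7.17 and 7.16 against 7.18, 7.48 and 7.37. Its conditions did not overlap, but shRNA replicate 2 and scramble replicate 1 nearly met, and the difference was -0.35 (95% interval -0.76 to 0.05 from limma), or -0.18 without shRNA replicate 1. Parp14, a mono-ADP-ribosyltransferase induced by interferon, was at 6.86, 7.19 and 7.17 against 7.20, 7.46 and 7.46, and the same arrays nearly met (difference -0.30, 95% interval -0.61 to 0.01 from limma). Oas2, which makes the 2-5A messenger of RNase L, was at 7.46, 7.38 and 7.50 against 7.54, 7.53 and 7.58. It separated the constructs by its narrow spread, with a difference of only -0.10 (95% interval -0.29 to 0.09 from limma). Mx1, Parp14 and Oas2 all had means below the median of all probes.

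**Figure D2:**
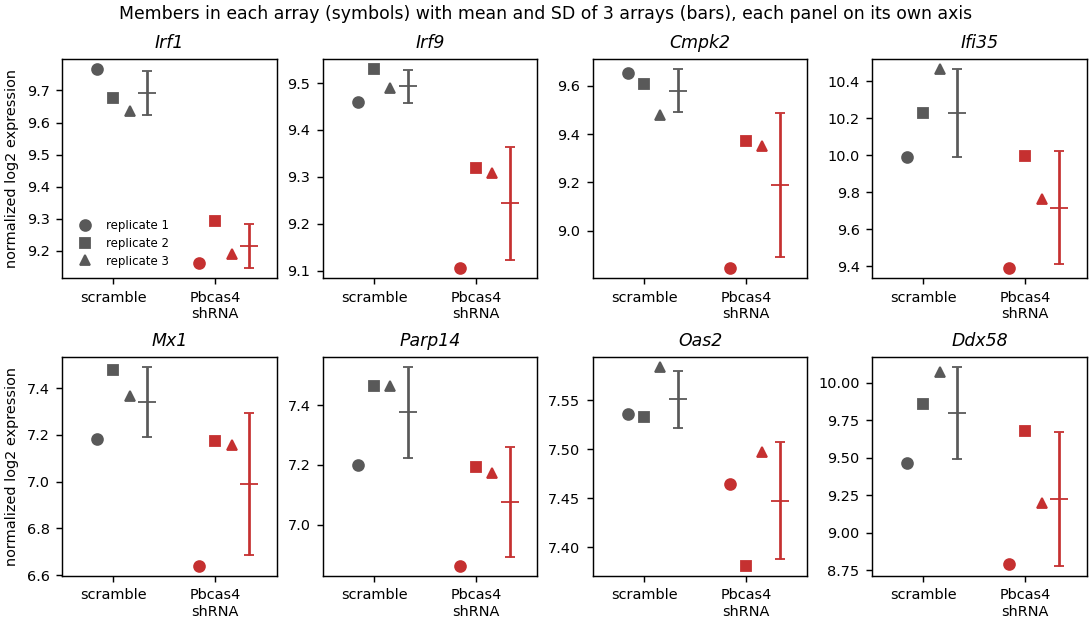
Normalized log2 expression (vertical axes, 1 per panel) of 8 genes, by array. Each symbol is 1 array, shaped by replicate number, and bars beside them give a condition's mean with SD (n = 3). No shRNA array reaches the scramble range for Irf1 (9.16 to 9.29 against 9.63 to 9.77), Irf9, Cmpk2, Mx1, Parp14 and Oas2, while the conditions overlap for Ifi35 and Ddx58.

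Several classical interferon-stimulated effectors had wide spreads and did not separate the constructs. Oasl2, an OAS-like protein, had the lowest difference of the members, -0.63, with an interval of -1.55 to 0.29 from limma, and -0.28 without shRNA replicate 1. It was at 7.94, 9.26 and 8.71 in the shRNA arrays and at 8.68, 9.56 and 9.58 in the scramble arrays. Ifit1, which binds RNA lacking 2′-O-methylation of the cap, was at 6.73, 8.24 and 7.83 against 7.75, 7.93 and 8.33 (difference -0.40, interval -1.32 to 0.51), and its sign turned without shRNA replicate 1 (0.03). Rsad2 (viperin), which makes a chain-terminating nucleotide, was at 7.81, 8.87 and 8.47 against 8.06, 8.98 and 9.15 (difference -0.35, interval -1.22 to 0.52), or -0.06 without shRNA replicate 1. In each of these 3 genes shRNA replicate 1 held the lowest value and scramble replicate 3 the highest. Oasl1, which restrains translation of Irf7, had a difference of -0.23 that turned to 0.08 without shRNA replicate 1.

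A further group of effectors lay close to 0. Adar, which edits adenosine in double-stranded RNA, differed by 0.03 (95% interval -0.18 to 0.24 from limma). Bst2 (tetherin), which holds budding virions at the cell surface, differed by 0.01 (-0.32 to 0.34), and Oas3 by 0.02 (-0.29 to 0.34). Samhd1, a phosphohydrolase that depletes deoxynucleotides, was at 11.37, 11.58 and 11.51 in the shRNA arrays and at 11.50, 11.33 and 11.30 in the scramble arrays. Its arrays overlapped, and its difference was 0.11 (-0.13 to 0.35). Ifit3 was at 6.17, 5.78 and 5.91 against 5.62, 5.87 and 6.07, with a difference of 0.10 that was -0.01 without shRNA replicate 1 and -0.02 without scramble replicate 1. Its near-identical neighbour Ifit3b may share signal with its probe. Ifit2, Parp9 and its partner ligase Dtx3l differed by 0.18, 0.15 and -0.05, and Oas1a, Oas1b, Xaf1 and Mx2 by -0.07 to -0.21.

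Variation among the shRNA arrays was larger for these genes than for most. The median SD over the 3 shRNA arrays was 0.232 for the members and 0.125 for all genes, while over the 3 scramble arrays it was 0.150 and 0.121. This spread was not divided among the arrays. The array of shRNA replicate 1 held the lowest of the 6 values for 24 of 39 members (61.5%), against 20.8% of all genes. It was the lowest array for 4 of 6 sensors, 8 of 12 signalling genes and 12 of 21 effectors. Compared with the mean of shRNA replicates 2 and 3 it lay lower for 33 of 39 members (84.6%, against 43.1% of all genes), with a median of -0.31 on the log2 scale, and by more than 0.5 for 13 members (33.3%, against 6.53% of all genes). The widest of these gaps were -1.30 for Ifit1, -1.04 for Oasl2, -0.99 for Irf2, -0.95 for Usp18, -0.94 for Oasl1 and -0.86 for Rsad2. Irf1 was not among them, with a gap of -0.08. Without shRNA replicate 1 the sign of the difference between the constructs turned for 7 of 39 members (Dhx58, Irf2, Ifit1, Ifit3, Oas1b, Oasl1 and Dtx3l). It also turned for 7 members without shRNA replicate 2, and for 2 to 5 without any other single array. This count was thus not particular to shRNA replicate 1, and the share of all genes is not given here. Ifit3, Oas1a, Nlrc5 and Zbp1 ran the other way and were higher in shRNA replicate 1 by 0.27 to 0.35, and Oas2 and Adar by under 0.05. The macrophage markers were not low in shRNA replicate 1, with means of 6.68, 6.58 and 6.66 in shRNA replicates 1 to 3. The cell division markers were at 12.74, 12.58 and 12.56 in these arrays, and their part in the pattern was not tested.

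**Figure D3:**
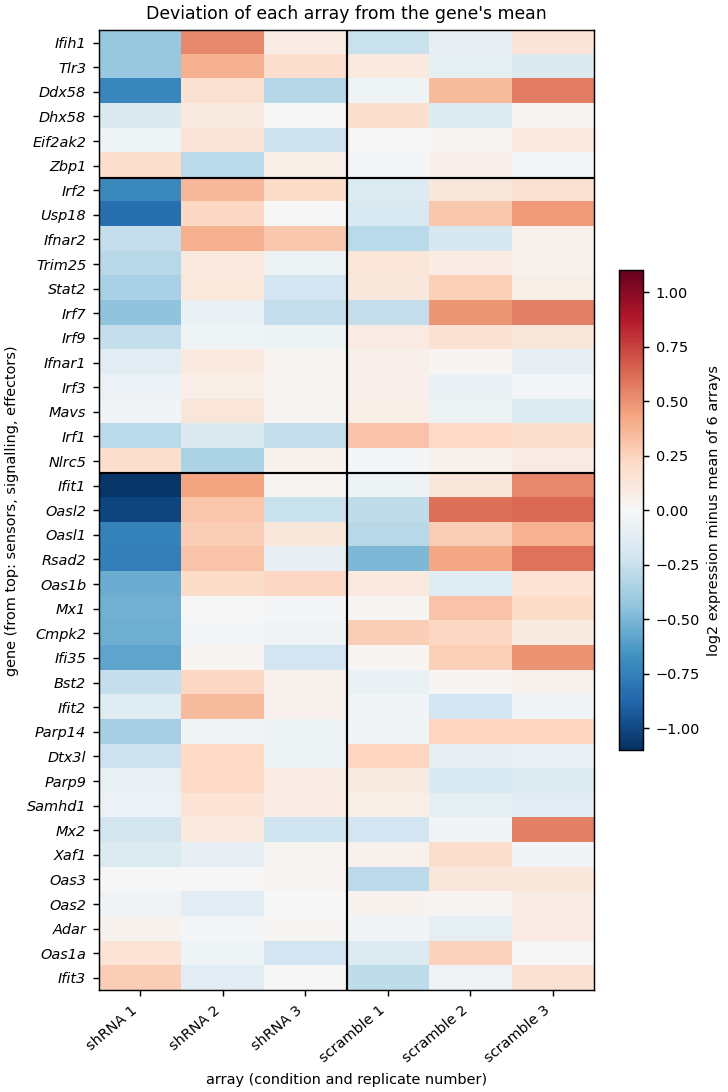
Deviation of each array from the gene's mean over the 6 arrays (colour, log2 units, blue lower and red higher) for the 39 genes (rows, by role) and the 6 arrays (columns). Rows within a role are ordered by shRNA replicate 1 minus the mean of the other shRNA arrays, and the blue column of shRNA replicate 1 runs through all 3 roles.

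**Figure D4:**
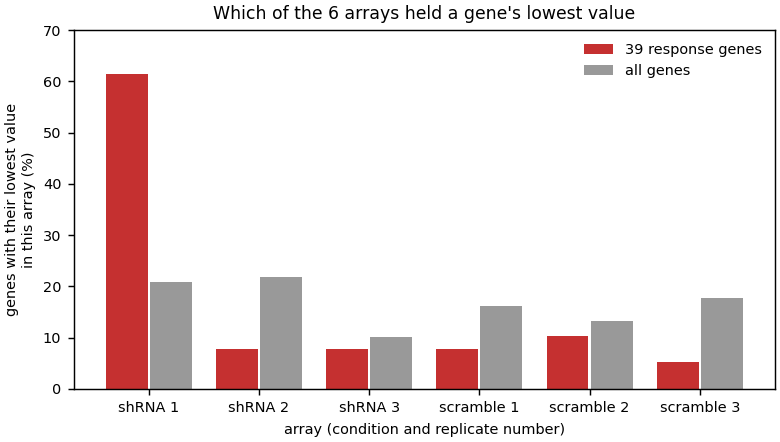
Percentage of genes whose lowest value of the 6 lay in each array (vertical axis, bars from 0), for the 39 response genes and for all 19938 genes. The bar of shRNA replicate 1 stands at 61.5% for the response genes and 20.8% for all genes, and the other arrays hold 5.13% to 10.3% of the response genes each.

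In the scramble condition replicate 1 was also the low array for some of the same genes. Its value minus the mean of scramble replicates 2 and 3 was -1.01 for Rsad2, -0.89 for Oasl2, -0.78 for Irf7 and -0.63 for Oasl1. Over all members the median of that difference was -0.07, against -0.04 over all genes. The mean of the signalling list was 9.79, 10.16 and 10.06 in shRNA replicates 1 to 3 and 10.08, 10.20 and 10.21 in scramble replicates 1 to 3, and that of the effectors was 8.10, 8.54 and 8.41 against 8.36, 8.53 and 8.61. The arrays numbered 1 were thus the lowest of their condition for both lists.

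**Figure D5:**
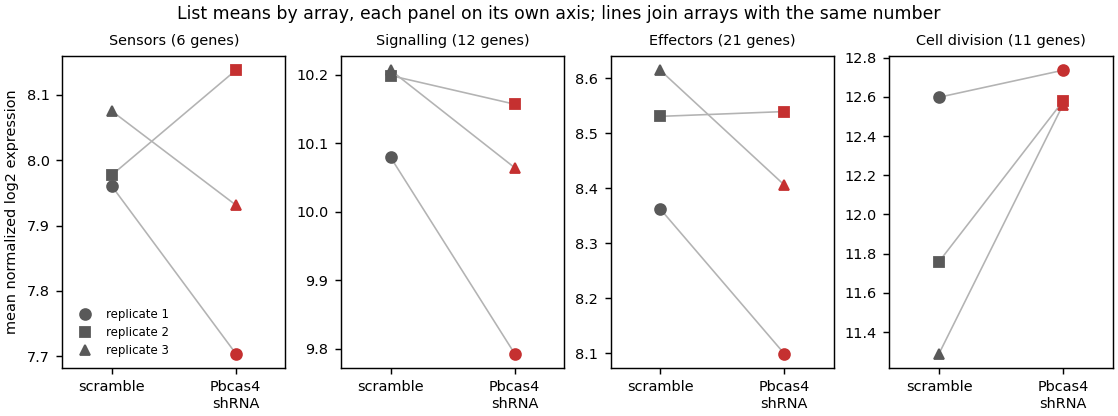
Mean normalized log2 expression (vertical axes, 1 per panel) of the sensors, signalling genes, effectors and 11 cell division markers in each array, with lines between arrays that carry the same replicate number. Circles (replicate 1) are the lowest of both conditions for all 3 response lists, and for the cell division markers scramble replicate 1 (12.60) lies beside the shRNA arrays.

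Neither labels nor methods say that arrays with the same number are pairs. After subtraction of condition means, such arrays had correlations of 0.291, 0.137 and 0.103, while shRNA replicate 2 and scramble replicate 3 reached 0.199. With the numbers taken as pairs from these same values, the members were also compared within numbers. The intervals and p-values of this comparison therefore rest on a pairing that is not established. Of 39 members, 14 were lower in the shRNA array of all 3 pairs (35.9%, against 18.0% of all genes) and 1, Ifnar2, was higher in all 3 (against 19.4% of all genes). With the replicate number as a block in limma, 10 members were lower at an unadjusted p under 0.05 (25.6%, against 7.35% of all genes) and 0 were higher (against 7.20% of all genes). These were Ddx58, Stat2, Irf9, Irf1, Irf7, Usp18, Oasl2, Mx1, Ifi35 and Parp14, and Cmpk2 was no longer among them. For Oasl2, shRNA minus scramble was -0.73, -0.30 and -0.87 in the pairs numbered 1 to 3, and the interval of its difference narrowed to -0.99 to -0.28. Irf1 differed by -0.61, -0.38 and -0.44 in the same pairs, and Ddx58 by -0.67, -0.18 and -0.87. None of the 39 passed the criterion in the paired fit either, and neither did any other of the 19938 genes (0%). The lowest adjusted p from limma among the members was 0.259 there, for Irf1.

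Binding elements for the complex of STAT2 and IRF9 were looked for in every member with a RefSeq promoter, whatever its pattern over the arrays. The core of the interferon-stimulated response element, GAAANNGAAA on either strand, was found in the 250 bases before a start site for 8 of 29 members with a RefSeq promoter (27.6%), against 3.46% of all genes. Promoters of Ifit1, Rsad2 and Stat2 are shown as examples of genes that were low in shRNA replicate 1 and carry the element. That of Ifit3 is shown because it carries the element and was not low there. Irf2 and Bst2, not shown, also carry it, with gaps of -0.99 and -0.40 in shRNA replicate 1, against -0.31 for Stat2. Each stretch is read along the strand of its gene with the match in capitals. The reverse complement of the core appears where the match is on the other strand. The Ifit1 stretch is at chr19:34640775-34640804 and that of Ifit3 at chr19:34583363-34583392, both on the plus strand. The Rsad2 stretch is at chr12:26456553-26456582 on the minus strand and that of Stat2 at chr10:128270266-128270295 on the plus strand, all of GRCm38.p6.
Ifit1: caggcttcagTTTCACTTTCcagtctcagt
Ifit3: cagtggtaagTTTCACTTTCctcttctggt
Rsad2: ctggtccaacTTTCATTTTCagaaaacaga
Stat2: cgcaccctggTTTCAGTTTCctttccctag
These matches begin 104, 156, 120 and 222 bases before the start sites. Further matches, not shown, begin 85 bases before the start of Ifit1 and 122 bases before that of Ifit3. The same 10 letters stand in the stretches of Ifit1 and Ifit3, although shRNA replicate 1 minus the mean of the other shRNA arrays was -1.30 for Ifit1 and 0.33 for Ifit3. Ifit3 had a mean below the median of all probes, at 5.95 and 5.85 in the conditions. The other members with the core were Bst2, where it overlaps the gamma-activated site match, Irf2, Oas1a and Oas3. Members with and without the core had similar medians: the gap of shRNA replicate 1 was -0.36 over the 8 with it and -0.32 over the 21 without it, and the difference between the constructs was -0.08 and -0.09. No promoter entry was found for Dhx58, Zbp1, Usp18, Nlrc5, Oas1b, Oas2, Mx1, Mx2, Parp9 and Parp14.

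Other genes of the pathway, from a list of 50 of which 42 were measured by a probe with 1 symbol, had a median log2 difference of 0.00 between the constructs. At an unadjusted p under 0.05, 3 were lower (7.14%, against 5.46% of all genes) and 3 were higher (7.14%, against 6.22%), and 0 met the criterion. Trim21, a ubiquitin ligase and antibody receptor, was at 10.45, 10.25 and 10.15 in the shRNA arrays and at 10.75, 10.77 and 10.68 in the scramble arrays, a difference of -0.45 (adjusted p = 0.363 from limma). Nlrx1, a mitochondrial regulator of MAVS signalling, was at 8.30, 8.29 and 8.42 against 8.61, 8.75 and 8.76 (difference -0.37), and Tyk2, a kinase of the interferon receptor, at 9.17, 9.40 and 9.01 against 9.40, 9.83 and 9.81 (difference -0.49). For these 3 genes no shRNA array reached the scramble range. Tarbp2, a partner of Dicer and inhibitor of PKR, was higher, at 10.94, 10.95 and 11.06 against 10.83, 10.42 and 10.17 (difference 0.51). Its scramble replicate 1 lay nearest the shRNA arrays, as for the cell division markers. Ptpn11, a phosphatase, was also higher (difference 0.35), as was Ifngr1, a chain of the interferon gamma receptor (difference 0.34, with overlapping arrays). With the replicate block, 7 of the 42 genes were lower and 4 higher at an unadjusted p under 0.05, against 7.35% and 7.20% of all genes.

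The interferon gene Ifnb1 itself was at 6.55, 6.35 and 6.40 in the shRNA arrays and at 6.28, 6.32 and 6.46 in the scramble arrays. Its arrays overlapped, all below the median of all probes, and the difference was 0.09 (95% interval -0.15 to 0.32 from limma). Isg20, an exonuclease, and Ifitm3, a membrane protein that blocks viral entry, were named after their values were seen, because they had the widest gaps of shRNA replicate 1 on the list (-1.40 each). Over the list, shRNA replicate 1 was the lowest array for 12 of 42 genes (28.6%, against 20.8% of all genes) and the highest for 9 (21.4%, against 27.3%). By condition mean, 22 of the 42 genes were higher and 20 lower after Pbcas4 shRNA (47.6% lower, against 49% of all genes). Isg20 was at 8.43, 10.05 and 9.61 against 9.12, 10.77 and 11.31, and Ifitm3 at 8.87, 10.44 and 10.09 against 10.22, 10.77 and 10.98. The difference of Isg20 was the lowest on the list, -1.04 (95% interval -2.56 to 0.49 from limma). That of Ifitm3 was -0.85 (95% interval -1.85 to 0.14 from limma). Both were lowest in shRNA replicate 1 and highest in scramble replicate 3, as Ifit1, Oasl2 and Rsad2 were. Isg15 was not analysed here.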

How the data were processed

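The deposited values are log2 expression per probe and array, summarized and normalized by the authors with a method not given in the sources used here. Probes were named from the platform annotation. A linear model per probe was fitted with lmFit and moderated with eBayes (limma 3.58.1, R 4.3.3). Two-sided p-values were adjusted by Benjamini-Hochberg over 35556 probes. The criterion was an adjusted p below 0.05 together with a log2 difference above 0.5. The latter is a reading of the study's limit on variance between conditions, and was not shown to be the study's own filter. Only 1-symbol probes (21789) were counted as genes. The fit was tested on simulated arrays with independent normal noise per probe and planted differences. Shifts shared by the genes of an array were not simulated, so that test does not cover them. Precision is limited by the number of arrays.

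The members and lists were chosen with earlier results of these data known. Values per array are given for members at an unadjusted p under 0.05 or with conditions that do not overlap, for the probes with the highest and the lowest mean of each role, and for further members chosen after their values were seen. Other pathway genes are named at an unadjusted p under 0.05, with Ifnb1. After subtraction of condition means, arrays with the same replicate number had correlations of 0.291, 0.137 and 0.103 across probes, although shRNA replicate 2 and scramble replicate 3 also reached 0.199. The numbers were treated as pairs from these values alone, since neither labels nor methods explain them. Motifs were searched in RefSeq promoters (GRCm38.p6), and 29 of 39 members were matched by symbol. Hairpin arms were read from the study's oligonucleotide table. Figures were drawn with matplotlib 3.10.9.
Alternatives were quantile normalization, centring, the replicate block, trended and robust variance, array weights, averaging over probes of 1 gene, a filter on dim probes, no size limit, and leaving out arrays.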

Additional observations from a re-analysis of the deposited data

How the results depend on the processing

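Irf1 was lower at an unadjusted p under 0.05 in all 14 alternatives, and the median over the members stayed negative in each (-0.17 to -0.06), but the number of members past that p did not hold. Members lower at that p (4) were 10 with the replicate block (25.6%, against 7.35% of all genes), 12 with array weights (30.8% against 15.1%), 1 with centring on the array median (2.56% against 3.68%), 7 without both arrays numbered 1 (17.9% against 8.94%) and 1 to 7 when single arrays were left out, and members higher at it (0) were 3 with array weights (7.69%, against 17.5% of all genes), 3 without both arrays numbered 1 (7.69% against 12.2%) and 0 to 2 without single arrays. The criterion was met by 3 members with array weights alone (Ddx58, Irf7 and Ifi35, of 1320 genes, or 6.62%, called in that fit, which weighted shRNA replicate 3 at 5.32 and the other arrays at 0.353 to 2.39). Irf1 reached an adjusted p of 0.0172 there from limma with a difference of -0.48, just under the size limit. Members with arrays that did not overlap were 12 higher and 16 lower without both arrays numbered 1 (all genes 26.3% and 29.2%). Among the 24 members with probes above the median level, 0 were higher without overlap and 3 lower (all genes 12.8% and 10.8%). Without single arrays 0 to 7 members were higher and 6 to 14 lower (all genes 11.4% to 20.3% and 9.58% to 19.7%). Fewer arrays overlap less often by construction. The median of the sensors was 0.0459 with array weights, 0.0028 without both arrays numbered 1, -0.33 over the 2 sensors with probes above the median level and -0.0979 to 0.0042 without single arrays. That of the signalling genes was -0.2793 to -0.0753 without single arrays. For the other pathway genes, the median near 0 became -0.0038 with quantile normalization, -0.0392 with array weights, -0.0144 over probes above the median level, -0.0077 without both arrays numbered 1 and -0.0329 to 0.0103 without single arrays. Of these 42 genes, 7 were lower at the unadjusted p with the replicate block, against 7.35% of all genes. With array weights 7 were higher and 10 lower, against 17.5% and 15.1% of all genes. Without both arrays numbered 1 the counts were 7 higher and 8 lower, against 12.2% and 8.94%. Without single arrays 1 to 5 were higher and 2 to 5 lower, against 2.44% to 11.4% and 2.88% to 8.03% of all genes. The sign of the difference turned for 19 of 39 members when some single array was left out, of which Ifit1 (-0.40) had the largest difference with all arrays. Of the genes given per array under the naming rule it turned for Irf2 (0.0401 with array weights, 0.14 without both arrays numbered 1, -0.301 to 0.24 without single arrays, positive without shRNA replicate 1), Ifit3 (-0.13 without both arrays numbered 1, -0.0161 to 0.2094 without single arrays, negative without shRNA replicate 1 or scramble replicate 1), Tlr3 (-0.0618 to 0.3429 without single arrays, negative without shRNA replicate 2) and Ifnb1 (-0.0082 without both arrays numbered 1). The cause of these shifts was not tested. The replicate block changed no call by the criterion.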
